A study of Mus musculus with 14 samples.

Results

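Solute carriers are membrane proteins that move small molecules such as amino acids, sugars, nucleosides, vitamins, metals and ions across the plasma membrane and the membranes of organelles. Genes of this superfamily carry symbols that begin with Slc and a family number, and a family usually shares a fold and a kind of substrate. The expressed solute carrier genes described here are the rows of the gene count table with such a symbol and at least 100 counts summed over the 4 RNA-seq libraries, with 7 genes left out by name (Slc2a1, Slc2a3, Slc3a2, Slc25a4, Slc25a5, Slc25a31 and Slc38a4). They are 100 genes among 377 solute carrier rows and 25131 rows in all. The members were chosen by their counts summed over knockout and wild-type libraries alike, and by the removal of the named genes. Of those 7, 6 were tested and all 6 were called, 4 higher and 2 lower in the knockout, so the counts of calls below do not stand for the whole superfamily.

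The RNA-seq compared mouse embryonic stem cells (ESCs) labelled RCOR2 KO (2 libraries) with WT ESCs (2 libraries), both of the C57BL/6 strain background. RCOR2 is a corepressor of the CoREST family, which acts with the histone demethylase LSD1. All cells grew in medium with fetal bovine serum, leukemia inhibitory factor and 2i, the pair of the MEK inhibitor PD0325901 and the GSK3 inhibitor CHIR99021. The labels do not give the deleted part of Rcor2, the number of clones, or whether replicates came from separate cultures; the spread behind each p-value is that of the libraries and could be technical. RCOR2 binding came from 1 list of chromatin immunoprecipitation (ChIP) peaks in WT ESCs that express RCOR2 with an HA tag, pulled down with anti-HA agarose. The series' TALE pull-downs of the Nanog locus, ATAC-seq and control samples enter no comparison here, and none of the 13 TALE 1 and 4 TALE 2 peaks lay over a member.

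The libraries were shallow, at 1974865 to 2951498 counts in the KO and 1286393 to 2368804 in WT. Of these counts the members took 0.613% and 0.614% in the KO and 0.540% and 0.524% in WT. Slc6a6 and Slc25a13, both on chromosome 6 and described below, make up a large part of that difference. Levels are given as CPM, counts scaled to 1000000 per library. Rcor2 itself averaged 54.04 ± 0.212 CPM over the KO libraries (SD, n = 2) and 81.4 ± 0.117 CPM over the WT libraries, a log2 fold change of −0.59 (SE 0.23) that was not called (edgeR, adjusted p = 0.0636), which does not check the genotype without knowledge of the deleted part. The libraries also differ in ways beyond this gene. Tested genes of chromosomes 6, 8 and 3 had median log2 fold changes of 0.92, 0.52 and 0.48, those of chromosome 11 −0.49, and the Y-linked genes Eif2s3y and Ddx3y had 1 count each over both KO libraries and 20 to 68 counts in each WT library. All 10 ESC markers were detected, with summed levels of 4584 and 4587 CPM in the KO and 4206 to 4491 CPM in WT. The sum hides changes in both directions. Of the 10, 2 were called higher, Klf4 (1.30) and Nanog (0.48, on chromosome 6), and 2 lower, Fgf4 (−0.83) and Dppa5a (−0.47). The 7 trophoblast markers, all detected, summed to 144 to 164 CPM in the KO and 38.1 to 47.2 CPM in WT; 3 were tested and called higher (Krt8, Krt18 and Gata3), while Krt7 was at 1.38 and 2.62 against 9.27 and 3.05 CPM. The 5 mesoderm markers (T at 0) summed to 21.7 to 28.3 against 2.95 to 3.05 CPM, of which the 1 tested, Eomes, was called higher and made up 17.3 and 22.5 CPM in the KO. Neural markers summed to 19.3 to 46.6 against 46.5 to 62.8 CPM, and of the 2 tested, 1 was called lower, Nes (−1.04). Fibroblast markers summed to 11.5 to 19.3 against 18.1 to 26.7 CPM, and primitive endoderm markers (Foxa2 at 0) to 3.66 to 7.59 against 2.11 to 5.33 CPM. The part of other cell types in the changes of the members was not tested. In bulk libraries, more cells of a type and more RNA per cell cannot be told apart.

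Of the 100 members, 18 were higher and 8 lower in the KO (edgeR quasi-likelihood test, Benjamini-Hochberg adjusted over all 10241 tested genes, adjusted p under 0.05). All 100 were tested. The share called was 26%, against 19.7% of all tested genes and 22.1% of those that also had 100 or more summed counts. In the higher direction 18% of the members were called, where the background was 10.4% of all tested genes and 12.2% of those with 100 counts. In the lower direction 8% were called against 9.3% and 9.91%. The median log2 fold change was 0.13 over the members, with 59 of 100 above 0, and −0.016 over all tested genes, with 5015 of 10241 above 0. On chromosomes other than 3, 6, 8 and 11, 35 of 66 members and 3573 of 7824 tested genes were above 0. In 39 members both KO libraries lay above both WT libraries, and in 24 both lay below, against 28.1% and 28.8% of all tested genes. The count depends on the libraries and on the test. It was 9 higher and 3 lower with DESeq2, and it was smaller without KO replicate 1, KO replicate 2 or WT replicate 1. The shares of all tested genes called in these runs were not taken, so the drops cannot be read as particular to the members.

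**Figure D1:**
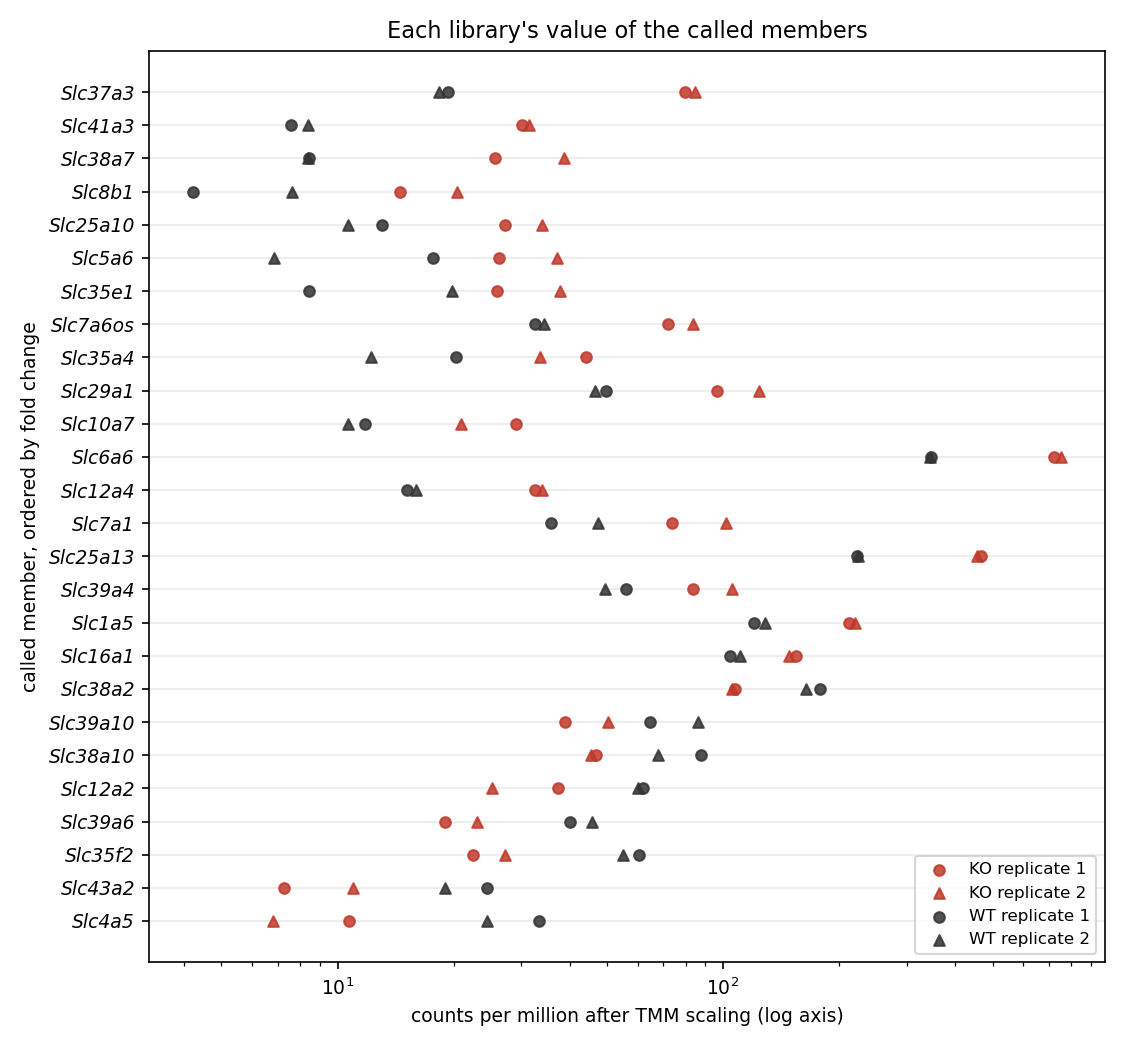
CPM after TMM scaling (horizontal log axis) of the 26 called members in each of the 4 libraries, ordered by fold change from Slc4a5 at the bottom to Slc37a3 at the top; circles and triangles are replicates 1 and 2, red is KO and black is WT. In each of the 18 members called higher both KO points lie right of both WT points, and in each of the 8 called lower both lie left. The same holds for 99.7% of all tested genes called higher and 99.9% of those called lower, so it adds nothing to the calls.

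Where RCOR2 sits at these genes is shown first by 4 promoters. They are the 4 with the highest −log10 q among the called members whose whole stretch shown lies inside an RCOR2 peak. The peak at Slc5a6 has the same −log10 q as the one at Slc43a2 and a fold of 5.98, and covers only a part of its stretch. The sequences are the 250 bases before the transcription start, from RefSeq on GRCm38.p6, written 5′ to 3′ on the strand of the gene, with the start just after the last base. Slc16a1 encodes the lactate and pyruvate transporter MCT1, Slc10a7 a relative of the bile acid transporters, Slc35f2 a relative of the nucleotide sugar carriers and Slc43a2 the neutral amino acid transporter LAT4. Capitals mark matches on either strand to any of 5 motifs: CACGTG (the E-box), TGCGCNC (metal response element), TGATGNAA (the ATF4 composite element), the spaced motif (TGA and GC with any 5 bases between) and the lysosomal CLEAR element (the E-box CACGTG between GT and AC, so that each match is also an E-box). The spaced motif was searched as an antioxidant element. Its spacing was not checked against that element, so its matches are not read as antioxidant elements.
Slc16a1: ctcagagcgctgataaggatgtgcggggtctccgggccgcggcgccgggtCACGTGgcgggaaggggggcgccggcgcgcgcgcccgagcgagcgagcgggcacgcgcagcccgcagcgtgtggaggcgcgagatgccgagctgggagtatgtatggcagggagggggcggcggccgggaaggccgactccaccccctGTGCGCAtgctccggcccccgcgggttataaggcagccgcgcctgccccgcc
Slc10a7: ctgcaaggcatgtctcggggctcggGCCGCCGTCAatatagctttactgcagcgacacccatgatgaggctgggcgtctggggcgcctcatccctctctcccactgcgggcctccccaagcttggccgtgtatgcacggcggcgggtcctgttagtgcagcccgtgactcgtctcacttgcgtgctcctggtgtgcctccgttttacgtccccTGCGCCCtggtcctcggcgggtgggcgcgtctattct
Slc35f2: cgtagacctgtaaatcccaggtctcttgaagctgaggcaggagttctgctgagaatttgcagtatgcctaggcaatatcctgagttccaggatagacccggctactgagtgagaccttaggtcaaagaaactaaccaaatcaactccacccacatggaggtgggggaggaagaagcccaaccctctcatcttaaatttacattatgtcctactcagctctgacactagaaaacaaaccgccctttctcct
Slc43a2: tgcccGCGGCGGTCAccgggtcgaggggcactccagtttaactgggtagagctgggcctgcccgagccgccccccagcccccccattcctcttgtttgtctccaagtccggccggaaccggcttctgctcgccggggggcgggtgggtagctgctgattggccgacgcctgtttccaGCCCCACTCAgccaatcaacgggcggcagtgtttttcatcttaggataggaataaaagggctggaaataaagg
Their positions are chr3:104638414-104638663, chr8:78509078-78509327, chr9:53771285-53771534 and chr11:75531444-75531693, all on the plus strand.

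The Slc16a1 peak was the strongest with its summit within 1 kb of a transcription start, among the 75 members with a promoter sequence. It ran from 104637621 to 104640153 with its summit 513 bases after the start, a fold of 13.7 and a −log10 q of 64.2, above 99.4% of all RCOR2 peaks; folds and q values are those of the authors' peak list. The stretch shown for Slc16a1 holds 37 CpG dinucleotides and 1 E-box, and 76.4% of its bases are G or C. At Slc10a7 the summit lay 137 bases before the start (fold 9.41, −log10 q 22.6), with 65.2% G or C. The Slc35f2 stretch stood apart, with 3 CpG dinucleotides, 47.6% G or C and none of the motifs, under a peak whose summit lay 109 bases before the start (fold 6.67, −log10 q 11.6). At Slc43a2 the summit was 130 bases before the start (fold 5.75, −log10 q 9.002), with 62.8% G or C. In the KO, the first 2 genes were called higher and the other 2 lower. The median share of G or C was 62.4% over the 100 such windows of the 75 members with a promoter sequence and 60.0% over the 10539 windows of all tested genes.

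An RCOR2 peak with its summit within 1 kb of either end of the gene was found at 71 of 100 members, against 67.2% of all tested genes. The count was 14 of the 18 members called higher, 4 of the 8 called lower and 53 of the 74 not called, beside 68.7%, 66.1% and 67.1% of all tested genes with those calls. With peaks of a −log10 q of at least 5 alone, 42 members and 40.7% of all tested genes had one. With a summit within 5 kb it was 80 members and 80.5%. Within 1 kb of a transcription start it was 54 members and 57.2%, where genes without a promoter sequence count as having no peak. After Slc16a1, the strongest peaks at a start lay at members that were not called, the zinc transporter Slc30a7 (fold 10.5, −log10 q 29.03) and the sodium bicarbonate transporter Slc4a8 (fold 10.3, −log10 q 25.9). Promoter sequences were matched for 75 members. An E-box stood in the 250 bases before a start of 14 of them, or 18.7%, against 10.5% of the 8267 tested genes with a promoter. It was found in 6 of the 13 such members called higher (Slc16a1, Slc25a13, Slc29a1, Slc37a3, Slc38a7 and Slc41a3) and in 0 of the 6 called lower. The shares of all tested genes with those calls were not taken, so no link of the E-box to the calls can be read from these counts. Of the 6, Slc29a1 alone lies off chromosomes 3, 6, 8 and 11. With changes centred on the median of each chromosome, Slc16a1 (0.024), Slc25a13 (0.13) and Slc41a3 (1.03) were not called. The metal response element was found in 24% of members and 26.3% of all, the spaced motif in 45.3% and 42.0%, the ATF4 element in 2.67% and 2.29%, and the CLEAR element in 0 members and 0.629% of all. These are matches of letters and not measured sites.

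Members that move amino acids and peptides changed in both directions. Of 13 members, 3 rose and 3 fell, 23.1% each way against 10.4% higher and 9.3% lower of all tested genes, with a class median of 0.41. Those that rose were the glutamine transporter Slc1a5 (ASCT2), the arginine and lysine transporter Slc7a1 (CAT1) and Slc38a7, which carries glutamine and asparagine out of lysosomes. Slc1a5 was at 213 and 220.3 CPM in the KO libraries and 121 and 129 CPM in the WT libraries, a log2 fold change of 0.80 (edgeR; SE 0.17, adjusted p = 0.000470). Both KO libraries lay above both WT libraries, and the replicates of each group were close together. Slc7a1 was at 73.5 and 101 CPM in the KO libraries and 35.8 and 47.2 CPM in the WT libraries, a change of 1.09 (edgeR; SE 0.25, adjusted p = 0.000873). Slc38a7 was at 25.5 and 38.7 CPM in the KO libraries and 8.43 and 8.38 CPM in the WT libraries, a change of 1.91 (edgeR; SE 0.43, adjusted p = 0.000576). The WT libraries were alike for Slc38a7 and the KO libraries were spread.

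The amino acid carriers that fell were Slc38a2 (SNAT2), a sodium-coupled importer of small neutral amino acids, its relative Slc38a10, and Slc43a2 (LAT4). Slc38a2 was at 107 and 106 CPM in the KO libraries and 178 and 165 CPM in the WT libraries, a change of −0.69 (edgeR; SE 0.18, adjusted p = 0.00441). Its groups did not overlap and its KO libraries nearly coincided. Slc38a10 was at 46.9 and 45.5 CPM in the KO libraries and 87.7 and 67.8 CPM in the WT libraries, a change of −0.76 (edgeR; SE 0.24, adjusted p = 0.0196). Slc43a2 was at 7.25 and 10.99 CPM in the KO libraries and 24.4 and 19.05 CPM in the WT libraries, a change of −1.29 (edgeR; SE 0.47, adjusted p = 0.0425). Both lie on chromosome 11, and in both the KO libraries were below the WT libraries. The Slc38 family thus held members called in opposite directions. Of the members not called, Slc7a3 (CAT3) was at −0.50 (SE 0.23) and the glutamine importer Slc38a1 (SNAT1) at 0.41 (SE 0.22). Slc7a5 (LAT1), the light chain that pairs with the heavy chain Slc3a2 to import leucine, was at 0.71 (SE 0.34), and Slc1a4 (ASCT1) at −0.96 (SE 0.43). The calls of Slc1a5 and Slc38a7 were kept with any 1 library left out, whereas that of Slc7a1 was lost without KO replicate 2 (0.86). Without KO replicate 1, KO replicate 2 or WT replicate 1, the calls were lost of Slc38a2 (−0.70, −0.66 and −0.61), Slc38a10 (−0.78, −0.72 and −0.54) and Slc43a2 (−0.998, −1.58 and −1.07), and with DESeq2 those of Slc38a10 (−0.75) and Slc43a2 (−1.26).

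Carriers of sugars numbered 4, of which 1 rose and 0 fell by edgeR, DESeq2 or limma-voom (0 fell at an unadjusted p under 0.05). By edgeR, 10.4% of all tested genes were higher and 9.3% lower. The 1 that rose was Slc37a3, of the sugar phosphate exchanger family, which had the largest fold change of all members. It lies on chromosome 6, where 56.2% of all tested genes were higher. Slc37a3 was at 79.7 and 84.8 CPM in the KO libraries and 19.4 and 18.3 CPM in the WT libraries, a log2 fold change of 2.11 (edgeR; SE 0.28, adjusted p = 4.45e-08). The KO level was 4.33 times that of WT, with a small spread in either group. The glucose transporter Slc2a8 (GLUT8) was at −0.26 (SE 0.32), Slc45a4 at −0.050 (SE 0.30) and Slc50a1, on chromosome 3, at 0.91 (SE 0.34).

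**Figure D2:**
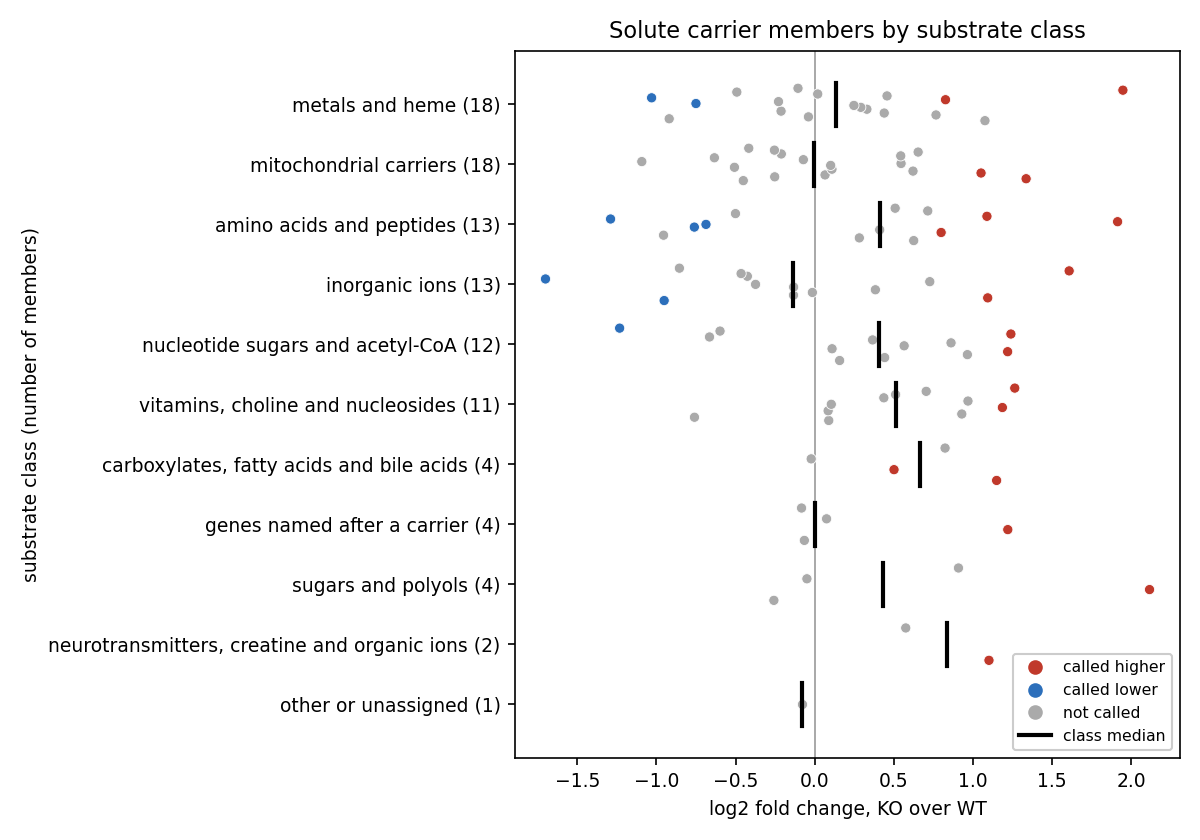
Log2 fold change of KO over WT (horizontal axis) of each of the 100 members, in rows by substrate class with the number of members in brackets; points are genes, red and blue are those called higher and lower, and black bars are class medians. Amino acid, inorganic ion, metal and nucleotide sugar carriers have calls on both sides of 0, whereas the calls among mitochondrial, vitamin and sugar carriers all lie above 0.

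Mitochondrial carriers of the Slc25 family, most of which exchange metabolites across the inner mitochondrial membrane, had few calls. Of 18 members 2 rose and 0 fell (DESeq2 and limma-voom also called 0 lower), 11.1% against 19.7% of all tested genes, and the median was −0.0035. Slc25a13 (citrin), which brings glutamate in for aspartate, was at 468 and 455 CPM in the KO libraries and 222 and 223 CPM in the WT libraries, a change of 1.05 (edgeR; SE 0.15, adjusted p = 4.42e-07). Its replicates were close together in both groups. Slc25a12 (aralar), which performs the same exchange, was at 0.065 (SE 0.38). Slc25a10, the dicarboxylate carrier, was at 27.3 and 34.01 CPM in the KO libraries and 13.1 and 10.7 CPM in the WT libraries, a change of 1.34 (edgeR; SE 0.40, adjusted p = 0.0111). The KO libraries lay above the WT libraries although the gene lies on chromosome 11, where the median was negative. The phosphate carrier Slc25a3 was at −0.072 (SE 0.14) and the glutathione carrier Slc25a39 at −0.21 (SE 0.15). The iron importer Slc25a28 (mitoferrin-2) was at −1.09 (SE 0.48) and the citrate carrier Slc25a1 at −0.45 (SE 0.23). On the chromosomes other than 3, 6, 8 and 11, 0 of the 11 mitochondrial carriers was called by edgeR, DESeq2 or limma-voom, and 1 (Slc25a28) had an unadjusted edgeR p under 0.05. The call of Slc25a10 was lost without KO replicate 2 (1.19) and with DESeq2 (1.36).

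Of 18 metal carriers 2 were higher and 2 lower, 11.1% each way, near the 10.4% and 9.3% of all tested genes, with a median of 0.13. The called zinc importers of the Slc39 (ZIP) family went in both directions. Slc39a4 (ZIP4), which takes zinc up at the cell surface, was at 83.5 and 106 CPM in the KO libraries and 56.1 and 49.5 CPM in the WT libraries, a change of 0.83 (edgeR; SE 0.23, adjusted p = 0.00663). Slc39a6 (ZIP6) was at 18.98 and 23.02 CPM in the KO libraries and 40.05 and 45.7 CPM in the WT libraries, a change of −1.03 (edgeR; SE 0.33, adjusted p = 0.0187). Slc39a10 (ZIP10), which forms a complex with ZIP6, was at 39.002 and 50.2 CPM in the KO libraries and 64.5 and 86.1 CPM in the WT libraries, a change of −0.75 (edgeR; SE 0.25, adjusted p = 0.0268). For all 3 zinc importers the groups did not overlap, as for 99.7% of all tested genes called higher and 99.9% of those called lower. Slc41a3, a magnesium transporter of mitochondria, was at 30.03 and 31.4 CPM in the KO libraries and 7.59 and 8.38 CPM in the WT libraries, a change of 1.95 (edgeR; SE 0.43, adjusted p = 0.000528). The zinc exporter of the cell surface, Slc30a1 (ZnT1), was at −0.92 (SE 0.45), the iron transporter Slc11a2 (DMT1) at 1.08 (SE 0.44), the copper importer Slc31a1 (CTR1) at 0.33 (SE 0.17) and Slc39a7 (ZIP7), which releases zinc from the endoplasmic reticulum, at 0.46 (SE 0.23).

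Beside them, the metallothioneins, zinc-binding proteins induced by metals, rose, Mt1 by 0.92 (SE 0.14) and Mt2 by 1.25 (SE 0.15). Both lie on chromosome 8 and were also called higher centred on it (0.41 and 0.73). The metal-sensing factor Mtf1 was at −0.088 (SE 0.33). The call of Slc39a4 was lost without KO replicate 2 (0.67) and with DESeq2 (0.84). Those of Slc39a6 and Slc39a10 were lost without KO replicate 1 (−0.89 and −0.57), KO replicate 2 (−1.15 and −0.92) or WT replicate 2 (−0.94 and −0.54) and with DESeq2 (−1.02 and −0.74). That of Slc39a10 was also lost with chromosomes 3, 6, 8 and 11 left out of the fit.

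Among 13 carriers of inorganic ions 2 rose and 2 fell, 15.4% each way against 10.4% and 9.3% of all tested genes, with a median of −0.13. Slc4a5 (NBCe2), a sodium bicarbonate cotransporter, had the largest decrease of all members. It was at 10.7 and 6.80 CPM in the KO libraries and 33.3 and 24.4 CPM in the WT libraries, a change of −1.70 (edgeR; SE 0.43, adjusted p = 0.00248), and its WT libraries differed from each other. Slc12a2 (NKCC1), which imports sodium, potassium and chloride, was at 37.3 and 25.1 CPM in the KO libraries and 61.97 and 60.2 CPM in the WT libraries, a change of −0.95 (edgeR; SE 0.28, adjusted p = 0.0102). Its relative Slc12a4 (KCC1), which exports potassium and chloride, went the other way, at 32.4 and 34.01 CPM in the KO libraries and 15.2 and 16 CPM in the WT libraries and a change of 1.09 (edgeR; SE 0.37, adjusted p = 0.0268). Slc8b1 (NCLX), which exchanges sodium for calcium in mitochondria, was counted 42 and 39 times in the KO and 10 times in each WT library, a change of 1.61 (edgeR; SE 0.56, adjusted p = 0.0341). With 101 counts in all, it was among the members nearest the count minimum. The phosphate importer Slc20a1 was at 0.38 (SE 0.21) and the bicarbonate transporter Slc4a7 at −0.43 (SE 0.22). The call of Slc4a5 was lost without WT replicate 1 (−1.43), that of Slc12a2 without KO replicate 2 (−0.70) or WT replicate 1 (−0.91) and with DESeq2 (−0.95). Those of Slc12a4 and Slc8b1 were lost without KO replicate 1 (1.13 and 1.83), KO replicate 2 (1.07 and 1.36) or WT replicate 1 (1.07 and 1.19) and with DESeq2 (1.11 and 1.61).

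Most vitamin, choline and nucleoside carriers had fold changes above 0. Of 11 members 2 rose and 0 fell, 18.2% called against 19.7% of all tested genes. A positive fold change was found in 10 of 11, against 5015 of 10241 tested genes. The median was 0.51, against −0.016 over all tested genes. DESeq2 and limma-voom also called 0 lower, and 1 (Slc19a2) was lower at an unadjusted edgeR p under 0.05. Of these 11, 10 lie on chromosomes other than 3, 6, 8 and 11. Slc29a1 (ENT1), the equilibrative nucleoside transporter of the cell surface, was at 96.6 and 124 CPM in the KO libraries and 49.7 and 46.5 CPM in the WT libraries, a change of 1.19 (edgeR; SE 0.23, adjusted p = 7.12e-05). That call was kept under all 12 alternatives, from 1.02 to 1.36. Slc5a6, the sodium-dependent transporter of biotin and pantothenate, was at 26.2 and 37.1 CPM in the KO libraries and 17.7 and 6.86 CPM in the WT libraries, a change of 1.26 (edgeR; SE 0.40, adjusted p = 0.0181). Its WT libraries were far apart, and it was at 2.20 without WT replicate 1. It was not called without WT replicate 2 (0.82) or KO replicate 2 (1.03), nor with DESeq2 (1.33). Its interval overlaps the gene Atraid, so that some of its reads may come from that gene. The thiamine transporter Slc19a2 was at −0.76 (SE 0.31), the 1 member of the class below 0. The riboflavin transporter Slc52a2 was at 0.70 (SE 0.35), the vitamin C transporter Slc23a2 at 0.93 (SE 0.43) and the choline transporter Slc44a1 at 0.97 (SE 0.51).

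The Slc35 family supplies the Golgi and endoplasmic reticulum with nucleotide sugars. Of its 12 members 2 rose and 1 fell, 16.7% and 8.33% against 10.4% and 9.3% of all tested genes, with a median of 0.40. Slc35f2 fell, at 22.4 and 27.2 CPM in the KO libraries and 60.7 and 54.9 CPM in the WT libraries, a change of −1.23 (edgeR; SE 0.29, adjusted p = 0.00139). It was the 1 member called lower under every alternative run. Slc35a4 was at 44.2 and 33.5 CPM in the KO libraries and 20.2 and 12.2 CPM in the WT libraries, a change of 1.22 (edgeR; SE 0.35, adjusted p = 0.00911); its interval overlaps Apbb3. Slc35e1 was at 25.9 and 37.7 CPM in the KO libraries and 8.43 and 19.8 CPM in the WT libraries, a change of 1.24 (edgeR; SE 0.40, adjusted p = 0.0222). In both genes the WT libraries were apart. Slc35b1, which carries ATP into the endoplasmic reticulum, was at 0.11 (SE 0.22), and Slc35b2, which carries the sulfate donor of the Golgi, at 0.56 (SE 0.32). The call of Slc35a4 was lost without KO replicate 1 (1.001) or WT replicate 2 (0.95) and with DESeq2 (1.25). That of Slc35e1 was lost without KO replicate 2 (0.96) or WT replicate 1 (0.68) and with DESeq2 (1.22), and its change was 1.89 without WT replicate 2.

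Of 4 carriers of carboxylates, fatty acids and bile acids 2 rose and 0 fell, where 10.4% of all tested genes were higher; both were near the threshold. DESeq2 and limma-voom also called 0 lower, as did edgeR at an unadjusted p under 0.05. All 4 lie on chromosomes 3, 8 and 11. On chromosomes 3, 6, 8 and 11 together, 24.5% of all tested genes were higher. Centred on the median of their chromosome, neither Slc16a1 (0.024) nor Slc10a7 (0.64) was called. Slc16a1 was at 154 and 149 CPM in the KO libraries and 104 and 110.5 CPM in the WT libraries, a change of 0.50 (edgeR; SE 0.19, adjusted p = 0.0497). Slc10a7 was at 28.99 and 20.9 CPM in the KO libraries and 11.8 and 10.7 CPM in the WT libraries, a change of 1.15 (edgeR; SE 0.42, adjusted p = 0.0459). Neither gene was called with any 1 library left out (Slc16a1 0.47, 0.54, 0.47 and 0.54, Slc10a7 0.88, 1.37, 1.25 and 1.09, without KO replicates 1 and 2 and WT replicates 1 and 2 in turn) or with DESeq2 (0.51 and 1.16), nor when scaled by library size alone (0.45 and 1.10). The lactate exporter Slc16a3 (MCT4) was at −0.022 (SE 0.25) and Slc27a3, of the fatty acid transport family, at 0.82 (SE 0.40). Of the chaperones that bring monocarboxylate transporters to the cell surface, Emb (embigin) fell from 78.2 ± 5.03 to 16.5 ± 0.368 CPM (SD, n = 2), a change of −2.25 (SE 0.29), while Bsg (basigin) was at 0.24 (SE 0.15).

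Slc6a6, the taurine transporter on chromosome 6, rose. It was at 724 and 754 CPM in the KO libraries and 345 and 344 CPM in the WT libraries, a change of 1.10 (edgeR; SE 0.15, adjusted p = 4.89e-08). The WT libraries nearly coincided and the KO libraries differed little. The creatine transporter Slc6a8 on X, the other member of that class, was at 0.57 (SE 0.28), and Slc49a4, in no class, at −0.078 (SE 0.26). There are 4 members that are named after a carrier without being one, set apart after their values were seen. They are Slc7a6os, the gene opposite Slc7a6, the scaffold proteins Slc9a3r1 and Slc9a3r2, and Slc4a1ap. Slc7a6os was the 1 of them called, at 71.8 and 83.7 CPM in the KO libraries and 32.5 and 34.3 CPM in the WT libraries, a change of 1.22 (edgeR; SE 0.26, adjusted p = 0.000327). Slc9a3r1 was at 0.075 (SE 0.27), Slc9a3r2 at −0.083 (SE 0.44) and Slc4a1ap at −0.066 (SE 0.25). Slc7a6 itself was at 0.51 (SE 0.27). No source used here says whether counting used strand, so reads of opposite neighbours may not be told apart.

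The calls of the members differed by chromosome, as did those of all tested genes. Of 34 members on chromosomes 3, 6, 8 and 11, 11 were higher and 3 lower, 41.2% called against 37.6% (24.5% higher and 13.2% lower) of all tested genes there. On the other chromosomes 7 of 66 were higher and 5 lower, 18.2% against 14.1% (6.02% higher and 8.09% lower) of all tested genes there. All 7 members on chromosome 3 had a positive change, with a median of 0.65 and 1 call, Slc16a1; the largest, Slc35a3, was at 0.96 (SE 0.50) and was not called. Of all tested genes there, 364 of 480 had a positive change and 26.2% were higher. On chromosome 8, 5 of 9 were called higher, with a median of 1.09, against 29.4% of all tested genes. On chromosome 6, 4 of 6 were higher and 1 lower, with a median of 1.08, against 56.2% and 2.39%. On chromosome 11, 1 of 12 was higher and 2 lower, with a median of −0.22, against 1.95% and 31.1%. The chromosome and the genotype cannot be told apart for these genes by a fit to the 4 libraries.

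**Figure D3:**
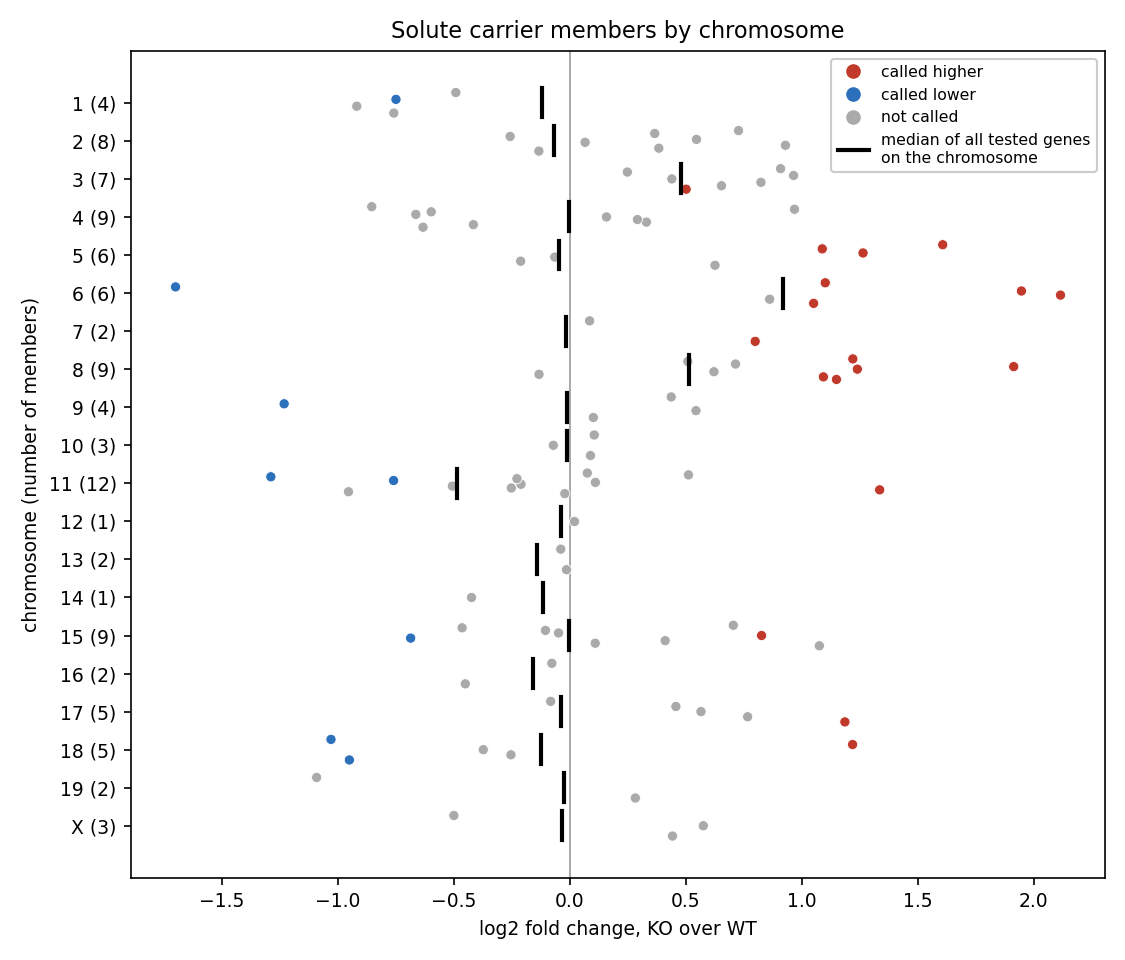
Log2 fold change of KO over WT (horizontal axis) of each member, in rows by chromosome with the number of members in brackets; red and blue points are members called higher and lower, and black bars are the median of all tested genes on the chromosome. Members on chromosomes 3, 6 and 8 lie mostly right of 0 with their chromosome's bar, Slc4a5 on chromosome 6 lies far left of it, and Slc25a10 on chromosome 11 far right.

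Centred on the median of their chromosome, 10 members were called higher and 4 lower, against 6.28% and 6.67% of all tested genes. Of the 26 calls, 12 were lost. On chromosome 6, Slc6a6 was at 0.18 and Slc25a13 at 0.13, so both were near the change of the chromosome as a whole, and Slc41a3 was at 1.03 (edgeR, adjusted p = 0.109). Slc37a3 was still called higher, at 1.20 (edgeR, adjusted p = 0.00200). Slc4a5 moved further down, to −2.62 (edgeR, adjusted p = 9.36e-06). On chromosome 8, Slc38a7 was called at 1.40, while Slc35e1 (0.73), Slc7a6os (0.70), Slc10a7 (0.64) and Slc12a4 (0.58) were not. Slc16a1 on chromosome 3 was at 0.024. On chromosome 11, Slc25a10 rose to 1.82 (edgeR, adjusted p = 0.000732), and Slc38a10 (−0.28) and Slc43a2 (−0.81) lost their calls. The calls of Slc39a6 (−0.90) on chromosome 18 and Slc39a10 (−0.63) on chromosome 1 were lost too, although those chromosomes had medians of −0.13 and −0.12.

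**Figure D4:**
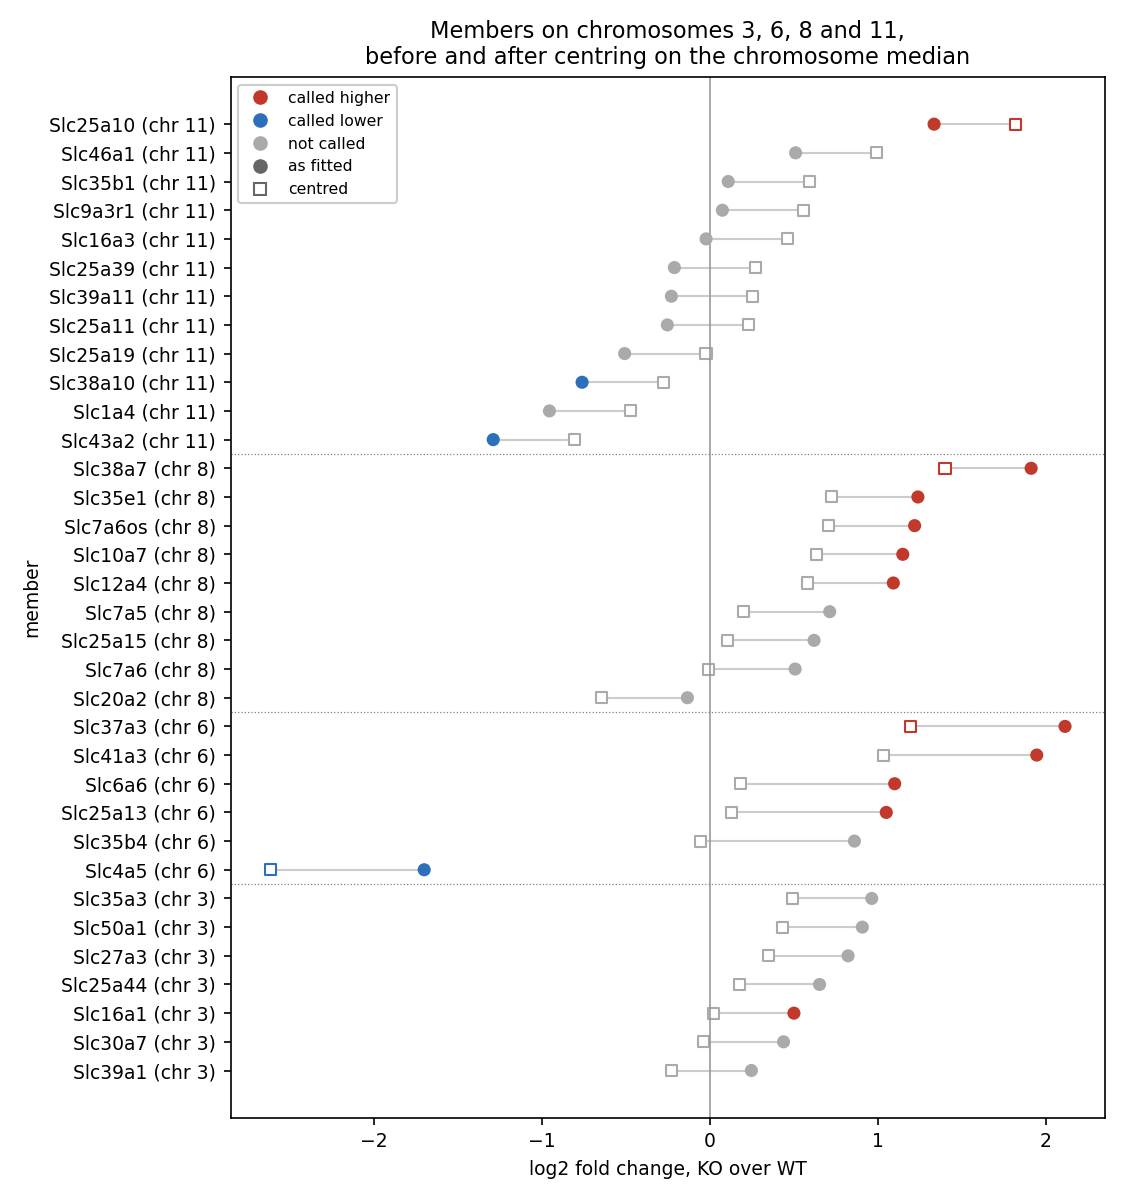
Log2 fold change of KO over WT (horizontal axis) of the 34 members on chromosomes 3, 6, 8 and 11, as fitted (filled circles) and centred on the chromosome median (open squares), joined by a line for each gene; red and blue mark calls in that fit. Among these genes, Slc25a10, Slc38a7 and Slc37a3 stay called higher and Slc4a5 lower after centring.

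Among chromosomes other than 3, 6, 8 and 11, chromosome 5 held 3 of the 7 members that rose there: Slc7a1, Slc8b1 and Slc5a6, among 6 members with a median of 0.86 where all tested genes had −0.045 and 6.91% of them were higher. The others were Slc1a5 on chromosome 7, Slc39a4 on 15, Slc29a1 on 17 and Slc35a4 on 18. Those that fell there were Slc38a2 on 15, Slc39a6 and Slc12a2 on 18, Slc39a10 on 1 and Slc35f2 on 9. All 4 members on chromosome 1 had both KO libraries below both WT libraries, from −0.92 to −0.49, with 1 call. Of all tested genes on chromosome 1, 33.2% lay so and 9.93% were called lower, with a median of −0.12.

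Below the count minimum, 271 solute carrier rows remained, of which 74 had no count and 56 were tested. Of the tested rows 2 were called higher and 3 lower, 3.57% and 5.36% against 10.4% and 9.3% of all tested genes. Just inside the minimum were Slc35a2 and Slc8b1 with 101 counts each and Slc39a9 with 111, at log2 fold changes of 0.44, 1.61 and 0.019. Just outside were Slc5a3 with 96, Slc35g1 with 95 and Slc25a40 with 93, at −0.32, −0.58 and 0.63.

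Transport genes outside the superfamily are read against the same background of 10.4% higher and 9.3% lower (centred, 6.28% and 6.67%). Of 30 tested pump genes (sodium-potassium, calcium, copper and proton pumps) 9 were higher and 1 lower, 30% and 3.33%. Centred, 4 were higher and 1 lower. The subunits of the proton pump of lysosomes included Atp6v1e1 on chromosome 6 at 0.83 (SE 0.15) and Atp6v1h on chromosome 1 at −0.85 (SE 0.24). Centred, Atp6v1e1 was at −0.086 and not called, and Atp6v1h at −0.73 and called lower. Of 20 tested ABC transporters 4 were higher and 1 lower, 20% and 5%, among them the drug exporter Abcb1a at 1.43 (SE 0.41) and the cholesterol exporter Abcg1 at −1.04 (SE 0.39). Of 9 tested Mfsd genes 2 were higher (22.2%), of 6 mitochondrial pyruvate and sideroflexin carriers 0 were called by edgeR, DESeq2 or limma-voom (1, Sfxn4, had an unadjusted p under 0.05), and of 2 Slco genes 1 was lower. Centred, 2 ABC transporters were higher and 0 lower, where Abcb1a kept its call and Abcg1 lost it. In the same centred fit, 1 Mfsd gene was higher and 1 Slco gene lower.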

How the data were processed

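Gene counts of 2 RCOR2 KO and 2 WT RNA-seq libraries were used as the authors deposited them, not normalized. Builds GRCm38 and mm10 and, among other tools, featureCounts, STAR 2.5.2b, MACS2 2.1.1.20160309, Bowtie2 2.3.4.1 and Trimmomatic 0.36 are listed without roles, per the submitters' processing notes. The use of strand and the treatment of multi-mapping reads were not stated there or in the labels. The deposited RCOR2 peak list gives for each peak a fold (ratio) and, from the authors' caller, a −log10 q value, over merged libraries without replicates. Counts were fitted with edgeR 4.0.16 (R 4.3.3; filterByExpr, TMM, quasi-likelihood F test, two-sided), and p-values were adjusted over 10241 genes; the fit was tested on simulated data. CPM are counts scaled to 1000000 per library after TMM scaling, with no gene length, so levels are compared between libraries and not between genes. The SE of a log2 fold change is its size over the square root of F. Symbols of all 100 members matched the RefSeq GRCm38.p6 table, which gave positions. Rows whose symbols had become dates (26 rows, 0.136% to 0.158% of counts) were matched to no gene or chromosome. They stayed in the fit where they passed its filter, and then count among all tested genes and those on the other chromosomes. A peak counted where its summit lay within 1 kb of a gene end. DESeq2 1.42.0, limma-voom (limma 3.58.1), other scalings, other filters, centring on chromosome medians and leaving out libraries were tried. The members and lists were chosen with earlier results of these data known. Named in each class were up to 5 called members with the lowest adjusted p and the 2 uncalled ones with the most counts, and further the largest changes and those nearest the count minimum; a few more uncalled members and transport genes were named for their role after their values were seen.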

Additional observations from a re-analysis of the deposited data

How the results depend on the processing

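Of the 26 calls, 5 were kept in every alternative run, higher for Slc1a5, Slc29a1, Slc37a3 and Slc38a7 and lower for Slc35f2, while 17 were lost without 1 of the 4 libraries, 12 after centring and 14 with DESeq2. The number higher, 18, was 10 centred per chromosome, 7 of 66 with chromosomes 3, 6, 8 and 11 left out, 9 with DESeq2, 11 of 55 with a minimum of 200 counts, and 9 to 18 with 1 library left out. The number lower, 8, was 4, 4 and 3 under the first 3 of these and 2 to 8 with 1 library left out. With 1 library left out, the lone library of its group is assumed to vary like the other group. Except for the centred run, the share of all tested genes called was not taken in these runs. The median log2 fold change, 0.13, was 0.082 scaled by library size alone, 0.16 with no filter on low counts, 0.19 with limma-voom, 0.16 with a minimum of 50 counts, 0.25 with one of 200, 0.16 to 0.21 with 1 library left out, and 0.20 without the 4 genes named after a carrier, an alternative chosen after seeing the data. The number with an RCOR2 peak, 71, was 42 at a −log10 q of at least 5, 80 within 5 kb and 54 within 1 kb of a transcription start. The causes were not tested.

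With the replicate number as a block, 16 members were higher and 7 lower, with a median of 0.14; the calls of Slc16a1 (edgeR, adjusted p = 0.0757), Slc10a7 (0.0577) and Slc43a2 (0.0538) were lost. The numbers were not shown to pair the samples: over 10241 genes the difference between KO replicates 1 and 2 and that between the WT replicates had a correlation of −0.053.

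Over the named members, 493 alternative values kept their direction and side of the threshold, 74 lost the call, 6 gained one and 17 changed sign, none of these from a called value. Those that changed sign were Slc16a3 (0.00055 with no filter, 0.46 centred, and −0.14 to 0.10 with 1 library left out), Slc25a3 (−0.18 to 0.063 with 1 left out), Slc25a39 (0.27 centred), Slc39a9 (−0.029 by library size, −0.11 with the block, −0.10 with limma-voom, and −1.10 to 0.60 with 1 left out), Slc45a4 (−0.32 to 0.38 with 1 left out), Slc49a4 (0.079 centred), Slc4a1ap (−0.43 to 0.26) and Slc9a3r1 (−0.27 to 0.41). Members near 100 counts rest on few reads in the shallower WT library.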
